A study of Mus musculus with 6 samples.

Results

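Cell arrest and DNA damage control genes are described here, 10 in number and all found among the 25894 Ensembl genes of the table. They were chosen by symbol: Cdkn1a, Cdkn2a, Mdm2, Ccng1, Trp53inp1, Gdf15, Sesn1, Gadd45a, Gadd45b and Gadd45g. RNA sequencing measured them in a subcutaneous fat depot, inguinal white adipose tissue, of 6 female C57 BL/6N mice described as 15 weeks old. In 3 mice sleep had been fragmented for 8 weeks and allowed to recover for 2 weeks (fragmented, recovered 1 to 3), and 3 were controls (control 1 to 3). All mice were fasted for 10 h before the fat was taken, each library came from 1 mouse, and the controls' sleep is described in the labels only as control. The comparison asks which transcripts differ between the groups after recovery sleep. No library is from before recovery, so whether a difference lasted from the fragmentation cannot be asked.

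The transcription factor p53 is held at a low level by Mdm2, a ubiquitin ligase that is itself a p53 target, so the pair forms a feedback loop. When DNA is damaged or a cell is stressed, p53 is released from Mdm2 and switches on genes that stop the cell cycle, repair DNA or start cell death, and Cdkn1a (p21) is the classic arrest gene among them. The Gadd45 proteins are small stress sensors that bind PCNA, cyclin-dependent kinase 1 and the kinase Map3k4. In fat, p53 and the arrest proteins p21 and p16 are known mainly from work on obesity, ageing and senescent progenitors.

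Promoter sequence is shown for 5 genes, because they hold the p53 sites found or belong to the Gadd45 family, whose members did not share 1 pattern. The sequences are from RefSeq (build GRCm38.p6, not the build named for the reads), and each is the 200 bases before an annotated transcript start, 5′ to 3′. The first pair each hold a p53 site, shown in capitals: 2 adjacent half-sites, 20 letters, with 1 mismatch allowed. Cdkn1a is at chr17:29090779-29090978 on the + strand, before its upstream start, and Ccng1 is at chr11:40755287-40755486 on the - strand.
Cdkn1a: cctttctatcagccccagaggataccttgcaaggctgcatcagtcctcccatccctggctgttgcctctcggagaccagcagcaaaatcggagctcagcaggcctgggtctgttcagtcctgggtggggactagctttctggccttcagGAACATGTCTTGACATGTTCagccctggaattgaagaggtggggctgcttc
Ccng1: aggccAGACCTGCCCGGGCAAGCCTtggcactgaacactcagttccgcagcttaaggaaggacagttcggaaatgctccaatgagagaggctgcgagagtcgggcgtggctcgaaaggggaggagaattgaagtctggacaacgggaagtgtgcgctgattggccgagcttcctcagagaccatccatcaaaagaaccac

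Such a site was found in 25 of 32851 promoter windows of 250 bases before a start, or 0.0761%. RefSeq windows were matched for 9 of the 10 genes (all but Trp53inp1), 13 windows in all, and the site was found in these 2 and in none of the other 11. A single p53 half-site of 10 letters was commoner, at 7.13% of all windows. Among the members it was found in windows of Cdkn1a, Ccng1, Mdm2, Sesn1 and Gadd45a.

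In the Gadd45 promoters, capitals mark the CCAAT box, the TATA motif TATAAA, the E-box CACGTG and the p53 half-site, each searched on both strands. Gadd45a is at chr6:67037408-67037607 on the - strand, Gadd45b at chr10:80929891-80930090 on the + strand and Gadd45g at chr13:51846475-51846674 on the + strand.
Gadd45a: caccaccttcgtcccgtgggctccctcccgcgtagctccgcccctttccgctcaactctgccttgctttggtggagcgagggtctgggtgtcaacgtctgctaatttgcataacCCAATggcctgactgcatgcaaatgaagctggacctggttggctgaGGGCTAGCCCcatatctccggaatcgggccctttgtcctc
Gadd45b: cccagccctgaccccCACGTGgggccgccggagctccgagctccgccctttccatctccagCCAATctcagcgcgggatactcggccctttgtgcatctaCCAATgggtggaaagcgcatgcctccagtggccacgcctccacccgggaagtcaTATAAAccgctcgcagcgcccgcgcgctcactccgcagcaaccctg
Gadd45g: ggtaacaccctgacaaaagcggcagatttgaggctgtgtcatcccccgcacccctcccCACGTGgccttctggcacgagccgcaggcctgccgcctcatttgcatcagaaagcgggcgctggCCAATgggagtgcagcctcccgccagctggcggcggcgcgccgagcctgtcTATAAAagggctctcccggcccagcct

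All 3 Gadd45 promoters hold CCAAT, found in 33.8% of windows. Gadd45b and Gadd45g also hold TATAAA (12.4%) and CACGTG (6.02%), and Gadd45a holds neither but has a p53 half-site. The CRE motif TGACGTCA (1.55%) was found in none of the 13 windows. These matches describe letters, not binding.

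Library depth, recovered from the values, was between 15610201 and 19703569 reads. The summed level of 10 adipocyte markers ran from 293270 to 581126 normalised units in fragmented, recovered mice and from 159233 to 432321 in controls, with every marker detected in every mouse. Markers of other tissues varied within both groups. The sum over 14 B and plasma cell genes was 93104 for control 2, 38010 for fragmented, recovered 2 and 23420 for control 3, and lay between 1862 and 3482 in the other libraries, where Pax5 or Fcer2a was among the genes at 0. Skeletal muscle markers (13 of 14 genes in the table) summed to 96044 in fragmented, recovered 1 and 12366 in control 2, against 209.4 to 2320 elsewhere. Mammary epithelium markers (14 genes) summed to 10006 and 12804 in controls 2 and 3, against 30558 to 40488 in the other 4 libraries, and skin keratinocyte markers (11 of 12 genes in the table) to 2205 and 2036, against 4137 to 8282. Adipocyte markers were also lowest in controls 2 and 3, and so were Cdkn1a, Gadd45a, Gadd45g and, on few reads, Gdf15. Neutrophil markers (10 genes) were highest there, at 9377 and 1300 against 77.6 to 885.2, and so were Ccng1, Trp53inp1 and Sesn1. The part of these cells in the members' values was not tested. Fewer cells of a type and less RNA per cell cannot be told apart in such tissue samples.

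None of the 10 genes passed a false discovery rate (FDR) of 0.05 by limma on log2(value + 1), where the background was 0.0% of 22290 genes tested. Normalised values here are reads divided by a library's size factor, and differences are fragmented, recovered minus control on the log2(value + 1) scale. All 10 genes passed the low-value filter, a mean of at least 1. Gadd45g (higher) and Ccng1 (lower) were the 2 members with an unadjusted limma p under 0.05, against 5.39% of all genes tested, of which 3.24% were higher and 2.14% lower. Gdf15 was the 1 member whose groups did not overlap, higher in all 3 fragmented, recovered mice, as were 5.02% of all genes, and 0 members were lower without overlap (3.58% of all genes). With 10 genes, none of these counts is taken as a result about the members.

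**Figure D1:**
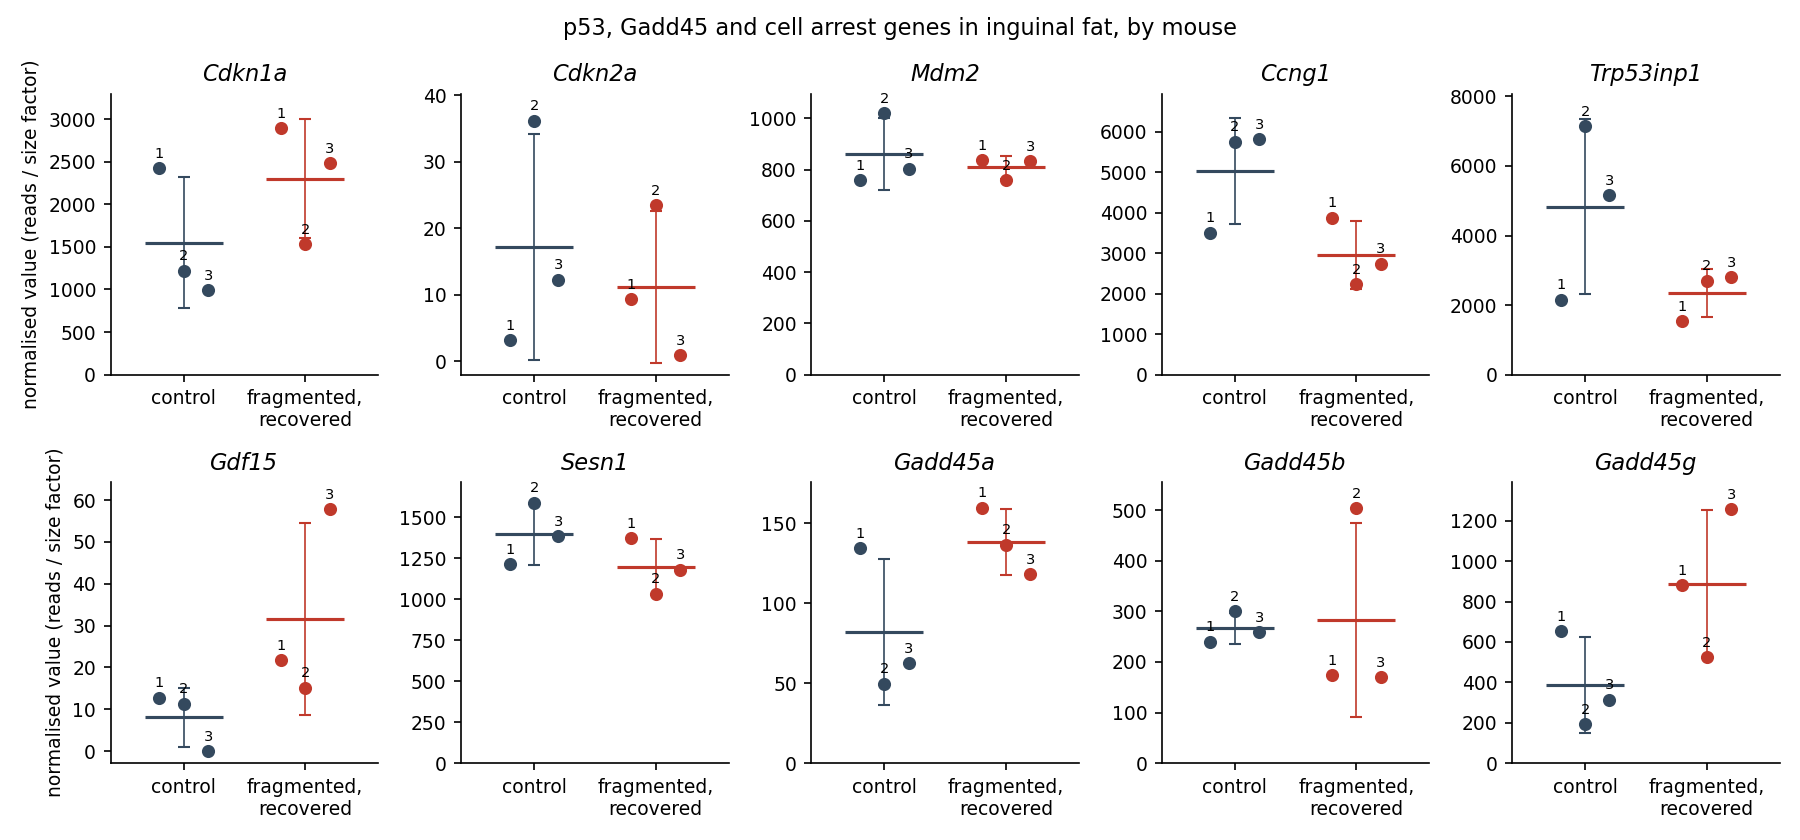
Normalised value (reads divided by the library's size factor, linear axis) of each gene in each of 6 mice. Points are mice with their number, horizontal bars are group means and whiskers are 1 SD. Control 1 lies within the range of the fragmented, recovered mice in 9 of the 10 panels, all but Gdf15.

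The arrest gene Cdkn1a, which encodes the cyclin-dependent kinase inhibitor p21, had normalised values of 2893, 1528 and 2486 in fragmented, recovered 1 to 3 and 2425, 1219 and 994.8 in control 1 to 3. Control 1 sat with the fragmented, recovered mice, and controls 2 and 3 were the lowest of the 6. The means were 2302 ± 700.3 (SD, n = 3) and 1546 ± 769.1, a log2 difference of 0.63 (SE 0.37, 95% interval -0.20 to 1.46, limma adjusted p = 0.697). Without control 1 the difference was 1.01 (limma adjusted p = 0.0940), and without control 3 it was 0.37. Transcript reads from its opposite strand partner AC167363.2, which shares 273 exon bases, could not be told apart here, and that gene's own values were at most 18.1.

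Cdkn2a was far lower. This gene has 2 annotated transcript starts that give p16Ink4a, an inhibitor of cyclin-dependent kinases 4 and 6, and p19Arf, an inhibitor of Mdm2, and the table has 1 row for both. The recovered reads were 9, 31 and 1 in fragmented, recovered 1 to 3 and 3, 32 and 11 in control 1 to 3, with normalised values of 9.33, 23.5, 0.903, 3.20, 36.2 and 12.3. The groups overlapped fully, and the log2 difference of -0.70 had an SE of 1.14 and a 95% interval from -3.25 to 1.85 (limma adjusted p = 0.849). The direction turned to 0.32 without fragmented, recovered 3 and to 0.07 without control 2. It was -1.52 without fragmented, recovered 2 and -1.50 without control 1.

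Across the 6 libraries, Cdkn2a followed the same order as the summed B and plasma cell markers, from control 2 through fragmented, recovered 2, control 3, fragmented, recovered 1 and control 1 to fragmented, recovered 3. With the B and plasma cell marker score as a covariate, its log2 difference was 0.14 (limma adjusted p = 0.992). The lower end of the Cdkn2a order rests on 9, 3 and 1 reads. Lymph node stroma markers (9 of 10 genes found) summed to 15223, 10577 and 9985 in control 2, fragmented, recovered 2 and control 3. They summed to 4405 to 4944 elsewhere. Neutrophil markers and T and NK cell markers were also highest in control 2, control 3 and fragmented, recovered 2. What part any of these markers had in the Cdkn2a values was not tested.

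The feedback gene Mdm2 was the steadiest of the 10. Its normalised values were 835.6, 757.8 and 831.6 in fragmented, recovered mice and 758.9, 1020 and 803.2 in controls, and the highest library was 1.35 times the lowest. The log2 difference was -0.08 (SE 0.23, limma adjusted p = 0.923), with a 95% interval from -0.60 to 0.44. Its sign turned in several settings, for example to 0.04 with reads scaled by library size alone.

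Another pair of p53 targets had lower means in the fragmented, recovered mice. Ccng1, cyclin G1, which recruits protein phosphatase 2A to Mdm2, had normalised values of 3874, 2238 and 2735 against 3506, 5748 and 5817 in controls. Controls 2 and 3 stood above the other 4 mice, while control 1 fell inside the range of the fragmented, recovered group. The means were 2949 ± 839.1 and 5024 ± 1315 (SD, n = 3 each), a log2 difference of -0.77 (SE 0.30, limma adjusted p = 0.697), and -0.37 after removing each library's trends along GC content and along length. Under limma-voom with quality weights Ccng1 was the 1 member to pass (adjusted p = 0.0470), among 6.34% of the genes tested. The threshold alone set it apart there, since the smallest limma-voom adjusted p of any gene was 0.0451. Gadd45g was at 0.0504 and Trp53inp1 at 0.0556 in that fit. Its unadjusted limma-voom p was under 0.05 for 6 members and for 5307 of 16141 genes.

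Trp53inp1, a nuclear protein that joins p53 in arrest and death programmes and also acts in autophagy, had normalised values of 1544, 2701 and 2794 in fragmented, recovered mice. The controls had 2157, 7151 and 5160. Controls 2 and 3 were again the 2 highest libraries, and control 1 lay between fragmented, recovered 1 and 2. The log2 difference was -0.92 (SE 0.43, limma adjusted p = 0.697), and it came to -0.32 with both trends taken out and to -0.28 without the 2 libraries highest in muscle markers. Without control 1 it was -1.42 (limma adjusted p = 0.0516), and without control 2 it was -0.56.

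Sesn1, a sestrin that relays leucine and stress signals to the growth kinase mTORC1, had values of 1371, 1032 and 1180 in fragmented, recovered mice and 1214, 1588 and 1382 in controls. Its groups overlapped, and the log2 difference was -0.22 (SE 0.23, 95% interval -0.74 to 0.29, limma adjusted p = 0.765). Without fragmented, recovered 2 it was -0.12, without control 2 it was -0.13, and with reads scaled by library size alone it was -0.11.

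Gdf15 encodes a secreted stress hormone of the TGF-β family that lowers appetite through a hindbrain receptor. Its recovered reads were few, at 21, 20 and 64 in fragmented, recovered mice and 12, 10 and 0 in controls. The normalised values were 21.8, 15.2 and 57.8 against 12.8, 11.3 and 0, where a count of 0 allows up to 3.34 units in control 3, for counting error only. The gap between the groups was narrow, from 15.2 in fragmented, recovered 2 to 12.8 in control 1. The means were 31.6 ± 22.9 and 8.03 ± 6.99 (SD, n = 3 each), and the log2 difference was 2.33 (SE 1.09, 95% interval -0.11 to 4.78, limma adjusted p = 0.697).

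The size of the Gdf15 difference rests on few reads and on single libraries. It was 1.10 without control 3, 1.79 without fragmented, recovered 3, 2.99 without control 1, and 1.16 with a pseudocount of 10 in place of 1. The sign was the same in all 21 alternatives run. Fgf21 is another hormone of the integrated stress response (chosen after its values were seen). It was above all controls, at 6.22, 6.07 and 10.8 against 1.07, 3.39 and 0 normalised units. Such values rest on a few reads. Of the 18 genes listed for that response, Fgf21 was the 1 gene above all controls, and 1 gene lay below all controls. The shares over all genes tested were 5.02% and 3.58%.

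**Figure D2:**
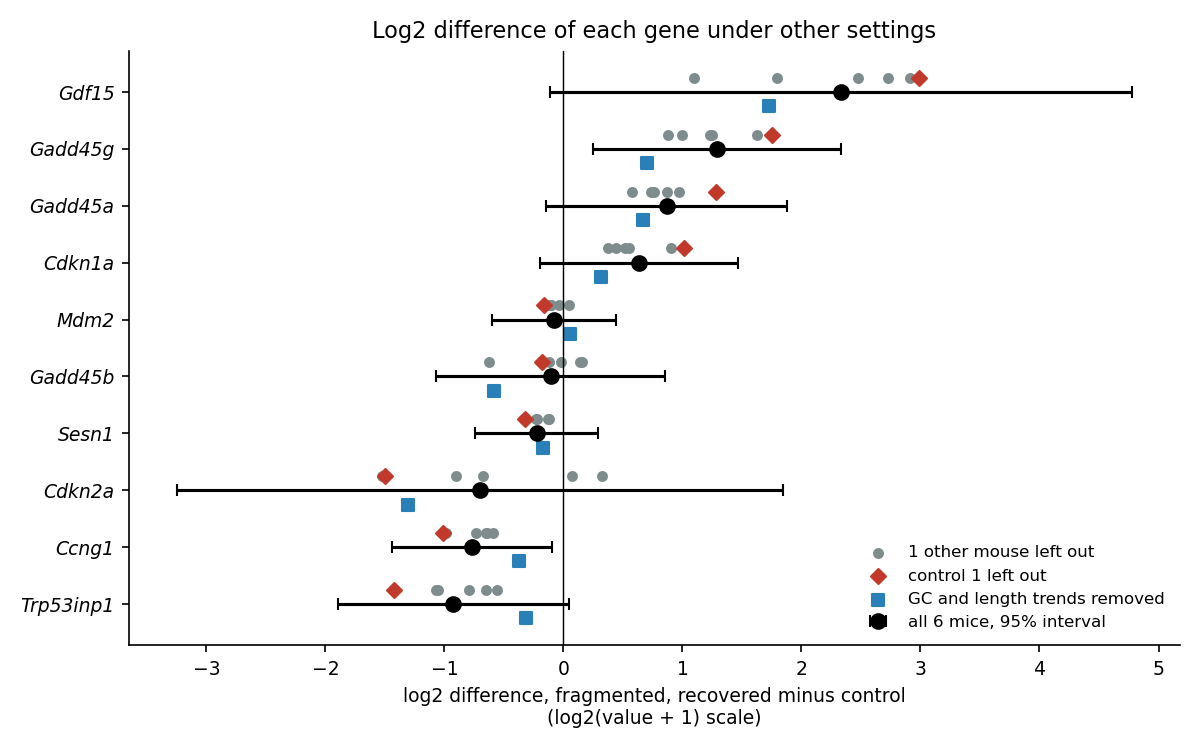
Log2 difference (fragmented, recovered minus control) of each gene with all 6 mice (black, 95% interval), with 1 mouse left out (grey, control 1 in red) and with GC content and length trends removed (blue). Without control 1, Gadd45g is at 1.76 and Trp53inp1 at -1.42, and with trends removed they are at 0.70 and -0.32.

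Among the Gadd45 genes, Gadd45g had the largest log2 difference, and its unadjusted limma p of 0.0204 was the smallest of the 10 members. It is an inducible family member that activates stress kinases through Map3k4. Its normalised values were 880.2, 524.9 and 1258 in fragmented, recovered mice and 652.3, 193.3 and 314.1 in controls. Control 1 overlapped with fragmented, recovered 2, and controls 2 and 3 were the lowest libraries. The means of 887.6 ± 366.5 and 386.6 ± 237.9 (SD, n = 3 each) gave a log2 difference of 1.29 (SE 0.46, 95% interval 0.25 to 2.33, limma adjusted p = 0.697). The difference was 0.84 when the 2 most muscle-rich libraries were dropped, and 1.76 without control 1.

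Gadd45a, the family member under direct p53 control, was also lowest in controls 2 and 3, at a lower level. Its values were 159.7, 136.5 and 118.3 against 134.3, 49.7 and 62.4, and control 1 lay above fragmented, recovered 3. The log2 difference was 0.87 (SE 0.45, limma adjusted p = 0.697). It was 0.58 without control 2, 0.47 without the 2 libraries highest in muscle markers and 1.28 without control 1. An opposite strand gene, E230016M11Rik, shares 337 exon bases with Gadd45a and had values of at most 35.6, and reads of the pair could not be separated here.

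Gadd45b, which is induced by NF-κB and TGF-β signals, did not follow that order. Its values were 174.2, 503.7 and 169.7 in fragmented, recovered mice and 239.8, 300.7 and 258.4 in controls. Fragmented, recovered 2 was the highest library of the 6 and fragmented, recovered 1 and 3 the lowest, so the fragmented, recovered group spanned the controls on both sides. The log2 difference was -0.11 (SE 0.43, 95% interval -1.07 to 0.86, limma adjusted p = 0.945), with an SD of 191.5 in fragmented, recovered mice and 31.2 in controls. With edgeR the difference was 0.11, and it was 0.16 without fragmented, recovered 3, and the value was -0.62 without fragmented, recovered 2.

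The libraries high in Gadd45b were high in lymphocyte markers. The summed level of 12 T and NK cell markers was 7040 for fragmented, recovered 2, 6416 for control 2 and 2069 for control 3, and from 609.6 to 918.7 in the other libraries. Over 12938 genes whose mean was 50 or more, the 5 with the highest Pearson r with Gadd45b over the 6 libraries were Sirt7 (0.99), Cd2 (0.98), Zgpat (0.98), Rinl (0.97) and Keap1 (0.96). Cd2 is a surface receptor of T and NK cells. For Cdkn1a the 5 were Rab12, Tcea3, Rsu1, Dync2li1 and Ppp2r2d, with r from 0.99 to 1.00, and 565 genes had an r above 0.9. All these r share the same 6 libraries, and the part of lymphocyte RNA in the values was not tested.

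**Figure D3:**
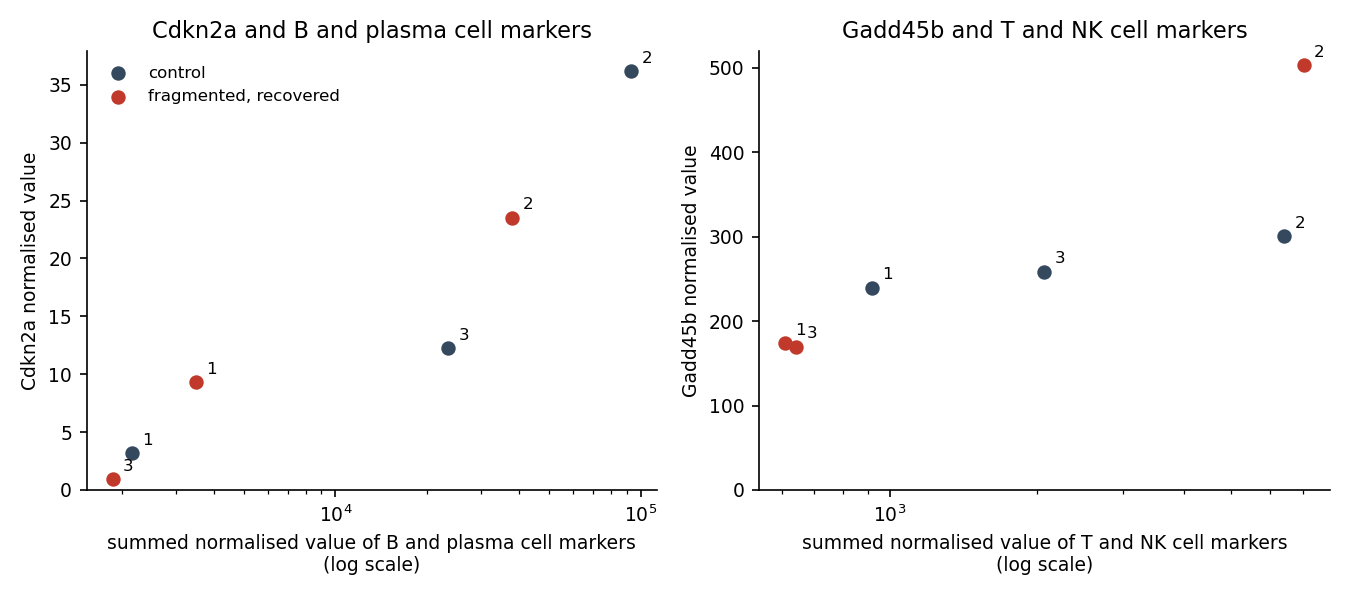
Normalised value of Cdkn2a against summed B and plasma cell markers (left) and of Gadd45b against summed T and NK cell markers (right), 1 point per mouse with its number and a log x axis. Fragmented, recovered 2, control 2 and control 3 lie to the right in both panels and hold the 3 highest values of each gene.

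Per kilobase of the longest annotated transcript, the order of mean normalised levels over the 6 mice was Ccng1 (1135), Cdkn1a (925.1), Trp53inp1 (659.9), Gadd45g (594.9), Sesn1 (339.9), Mdm2 (265.3), Gadd45b (213.7), Gadd45a (90.1), Cdkn2a (15.9) and Gdf15 (12.8). Neighbours in that order overlapped across mice, except Gadd45b with Gadd45a and Gadd45a with Cdkn2a. For example, Ccng1 ranged from 637.2 to 1656 per kilobase and Cdkn1a from 478.3 to 1391. The order also differed between groups, since in fragmented, recovered mice Cdkn1a (1107) stood first, with Ccng1 at 839.7 and Gadd45g at 828.8.

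Control 1 lay within the range of the fragmented, recovered mice for 9 of the 10 genes, against 64.9% of all genes tested. Control 2 did so for 1 gene and control 3 for 3, against 36.4% and 36.5%. Leaving out control 1 gave 844 calls over all genes (3.79%) and 0 among the members, whose smallest limma adjusted p was then 0.0516. With both trends removed as well, a setting added after seeing the data, 88 genes passed (0.395%), again 0 of them members. Controls 2 and 3 had the opposite GC trend to the other libraries, with Spearman's rho across genes of -0.27 in both against 0.13 to 0.37. With transcript length, rho was 0.18 and 0.29 in controls 2 and 3, against -0.22 to 0.06 elsewhere. The 2 members with the lowest transcript GC, Trp53inp1 (38.8%) and Ccng1 (40.8%), were high in controls 2 and 3. The longest members, Trp53inp1, Sesn1 and Ccng1 (5432, 3809 and 3512 bases), were all highest there, and GC and length were not told apart. Members with more GC did not share 1 pattern. Gdf15 (61.3%), Gadd45g (59.9%) and Cdkn1a (54.4%) were low in controls 2 and 3. Cdkn2a (60.2%) and Gadd45b (56.9%) were higher in both than in control 1. With these trends removed, the differences of Gadd45g, Cdkn1a and Gadd45a were 0.70, 0.31 and 0.67, nearer to 0, and those of Cdkn2a and Gadd45b were -1.31 and -0.58, farther from 0.

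The p53 gene itself, Trp53, had normalised values of 466.5, 830.6 and 529.1 in fragmented, recovered mice and 482.8, 522.2 and 474.6 in controls. Fragmented, recovered 2 was the high library and the other 5 were close together. The log2 difference was 0.26 (SE 0.28, limma adjusted p = 0.773). Mdm4, the partner of Mdm2 in restraining p53, had -0.42 (SE 0.33). Of all genes tested, 51.6% had a log2 difference above 0, and the median was 0.02. Among 16 genes for p53 and its regulators, 0 passed the FDR threshold, 6 were higher and 10 lower, and the median log2 difference was -0.14. That median was 0.01 without fragmented, recovered 1 and 0.14 without the 2 libraries highest in muscle markers. Sirt1, a deacetylase of p53, was the 1 gene with an unadjusted limma p under 0.05, at -0.66 (SE 0.27), and Atr, a DNA damage kinase, had -0.78 (SE 0.38). Usp7, which deubiquitinates Mdm2 and p53, had -0.10.

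Of 35 further p53 targets, 25 were higher and 10 lower, 0 passed, and the median was 0.21. That median was 0.03 with GC content and length trends removed, 0.10 without fragmented, recovered 1 and 0.13 without fragmented, recovered 2 or control 3. The genes of this list with an unadjusted limma p under 0.05 were Ckap2, a spindle protein, at -1.49 (SE 0.55), Ephx1, an epoxide hydrolase, at 0.62 (SE 0.25), and Rrm2b, a ribonucleotide reductase subunit (chosen after its values were seen), at -0.76 (SE 0.31). Ephx1 had values of 1169, 1063 and 927.3 against 853.7, 584.4 and 641.7, and its groups did not overlap. In this list 3 genes, Ephx1 among them, lay above all controls, and 1 gene, Ckap2, lay below all controls. The shares over all genes tested were 5.02% and 3.58%. The 2 most abundant targets, Trp53inp2 and Ei24, had 0.37 and -0.18.

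Genes that stop the cell cycle and genes that drive it were counted in the same list, which leaned to values below 0. Of 18 cyclin-dependent kinase inhibitors, pocket proteins, G1 cyclins and their kinases, 13 were lower and 5 higher, 0 passed, and the median was -0.31, or -0.12 without control 2. Rb1, the retinoblastoma protein that arrest through p16 and p21 depends on, had values of 1761, 1373 and 1896 against 1921, 2841 and 3276, with no overlap and a log2 difference of -0.65 (SE 0.27). Of this list, Rb1 was the 1 gene below all controls, as were 3.58% of all genes tested, and 0 were above. Cdk6, a kinase that p16 inhibits, had -1.28 (SE 0.55), and Ccnd2, a D cyclin, -0.62 (SE 0.39).

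All 23 cell cycle genes had log2 differences below 0, with a median of -1.40 and 0 past the threshold. Of these, 9 were lower with an unadjusted limma p under 0.05, as were 2.14% of all genes tested. Ccnb1, the mitotic cyclin and a Gadd45 partner, had values of 34.2, 158.5 and 33.4 against 76.7, 826.3 and 506.9. It was highest in the 3 libraries that were high in B and plasma cell markers, in both groups. Cenpf, a kinetochore protein, had -2.13, Top2a -2.20 and Mki67 -1.75. The median was -0.80 with the B and plasma cell marker score as a covariate and -0.49 without the 2 libraries highest in muscle markers. It was -2.19 without control 1 and -2.09 without fragmented, recovered 2.

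Of 16 Gadd45 partners and effectors, 4 were higher and 12 lower, 0 passed and the median was -0.26. The median was 0.04 without the 2 libraries highest in muscle markers and -0.06 without control 2. This list shares Ccnb1, Cdk1 and Pcna with the cell cycle list, all of whose genes were lower, so the 2 lists are not separate observations. Ccnb1 had -2.47 (SE 0.88). Gadd45gip1, a mitochondrial ribosomal protein that binds Gadd45 proteins, had values of 240.5, 306.5 and 181.5 against 283.5, 52.0 and 15.6, a log2 difference of 1.92 (SE 0.85). The stress kinases Mapk14 (p38α) and Mapk9 (JNK2) were the most abundant of the list, with -0.06 and -0.35.

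The integrated stress response, which induces Gdf15 through Atf4 and Ddit3, had a median of 0.50 over 18 genes, 11 higher and 7 lower, with 0 past the threshold. Atf4 had values of 3023, 2225 and 2561 against 2594, 842.1 and 540.3, so control 1 again lay among the fragmented, recovered mice. The 4 genes with an unadjusted limma p under 0.05 were Atf4, Cebpb, Nupr1 and Fgf21, all higher, as were 3.24% of all genes tested. The log2 difference of Atf4 was 1.29 (SE 0.49), that of Cebpb 1.48 (SE 0.54) and that of Vldlr -0.50 (SE 0.27). Nupr1, a stress-induced chromatin protein (chosen after its values were seen), had 965.2, 871.6 and 918.2 against 1143, 66.7 and 99.1, with a difference of 2.21. The list median was 0.08 after the GC content and length trends were taken out.

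Of 26 immediate early genes, which stimuli induce within minutes and among which Gadd45b and Gadd45g are often counted, 20 were higher, 6 lower and 0 passed, with a median of 0.77, or 0.45 with GC content and length trends removed. Of the 26, 11 were higher with an unadjusted limma p under 0.05, as were 3.24% of all genes tested. For 8 of the 26 the groups did not overlap, all higher, as for 5.02% of all genes. The list was chosen with earlier results of these data known. Zfp36 had 1.10 (SE 0.26), Klf2 0.95 (SE 0.26) and Klf6, the most abundant, -0.15 (SE 0.28). Gadd45g lay on the side of the list's median and Gadd45b did not.

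In the remaining lists medians were from -0.00 to 0.19, and the first and second of them changed sign with 1 mouse left out. For 15 Gdf15 receptor and sestrin partner genes the median was -0.00 (7 higher, 8 lower), with Sqstm1 at 0.25, Sesn3 at -0.75, Seh1l at -0.54 and Prkaa1, a catalytic subunit of AMPK, at -0.64 (SE 0.29). For 13 FoxO factors and targets it was 0.06 (8 higher, 5 lower), with Pck1 at 0.15, Txnip at 0.01 and Klf15 at 0.35. For 18 genes of senescence-associated secretion and the nuclear lamina it was 0.19, with 11 higher and 7 lower, or 0.050 without control 3, 0.085 without fragmented, recovered 1 and 0.037 without the 2 libraries highest in muscle markers. There Igfbp7, a secreted binding protein, had 0.96 (SE 0.34), Hmgb1, a chromatin protein, -0.60 (SE 0.25), Igfbp4 0.35 and Igfbp5 0.08. None of these genes passed the FDR threshold of 0.05 by limma.

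**Figure D4:**
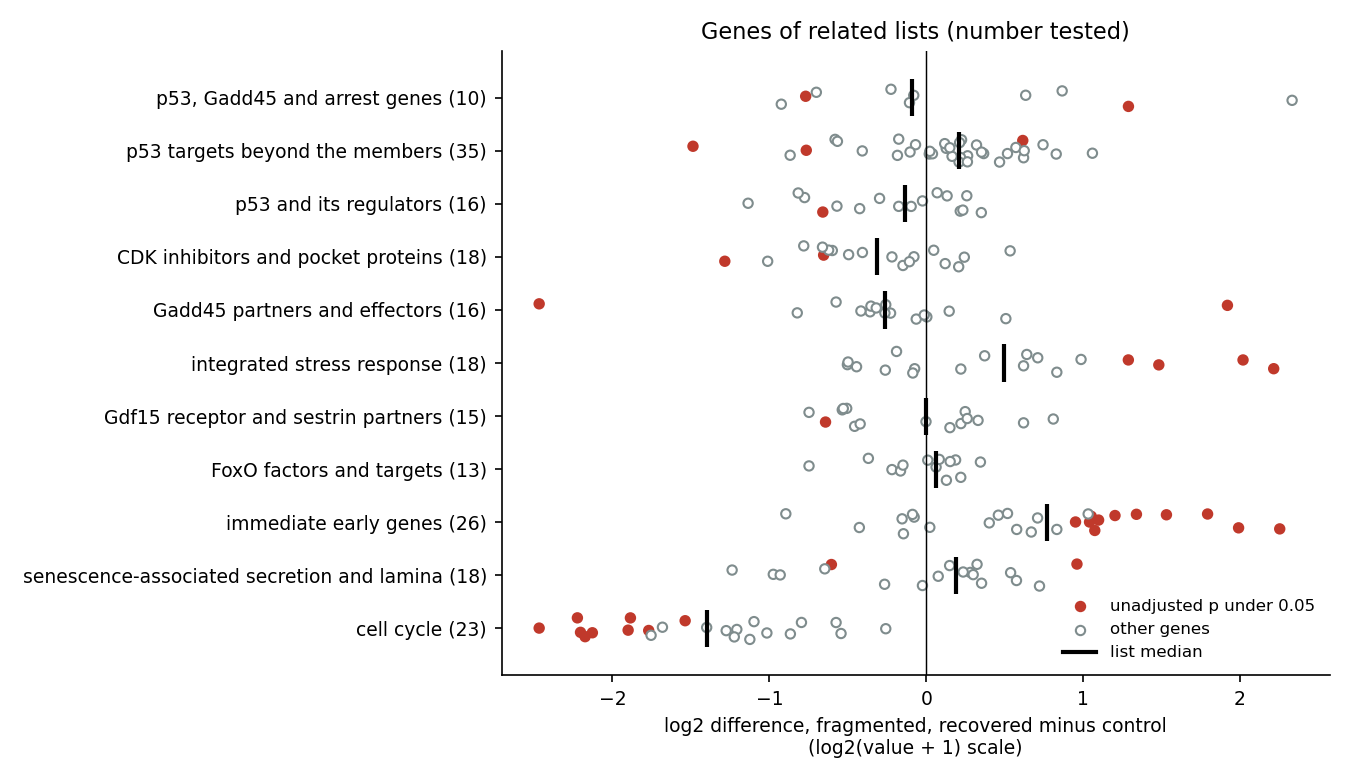
Log2 difference (fragmented, recovered minus control) of every tested gene in the 10 members and 10 related lists, with the number tested in brackets. Filled points have an unadjusted limma p under 0.05 and black bars are list medians, from -1.40 for the cell cycle list to 0.77 for immediate early genes.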

How the data were processed

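The submitters' processing notes name CASAVA, HISAT2 2.0.5, featureCounts 1.5.0-p3 and, as genome build, mm8. The authors' deposited table gives 1 signal value for each gene and library. The normalization step is not given in the sources used here. Every value was a whole multiple of its column's smallest value above 0, within 0.02, so reads could be recovered as multiples (100% of values whole in each library) and 1 scaling factor per library accounts for the deposited values. Symbols came from an identifier table, which left 33 identifiers unmatched.

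limma 3.58.1 (R 4.3.3) with an intensity trend took log2(value + 1) of the 22290 genes averaging 1 or more, and p-values were adjusted over all of them (Benjamini-Hochberg). edgeR 4.0.16, DESeq2 1.42.0 and limma-voom were run on recovered reads as alternatives. These 4 fits were tested on simulated data. GC content and length came from the longest GENCODE M21 transcript, known for 99.87% of genes tested, and trends were fitted as splines (4 degrees of freedom) and subtracted.

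The members, gene lists and several alternatives were chosen with earlier results of these data known. Lists are described by counts and medians, with no set test, and some genes are in more than 1 list. Genes named are the 10 members, Trp53 and Mdm4, and in each related list the 2 most abundant and the 2 with the smallest p. Any other gene given with its values is marked in the text as picked after they were seen. For Gadd45b and Cdkn1a, 5 genes of most like pattern were also named. Of the list genes, Gfral and Cyr61 (listed as Ccn1) and some markers were not matched. Each mouse gave 1 library, so p-values rest on 3 mice a group.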

Additional observations from a re-analysis of the deposited data

How the results depend on the processing

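With all 6 mice, 0 members and 0 genes of all passed an FDR of 0.05 by limma (1201 genes at an unadjusted p under 0.05), edgeR (754) and DESeq2 (1186). The same counts of 0 were found under every normalisation, pseudocount and filter run, with the marker score as a covariate, and with trends removed. The exception was limma-voom with quality weights, with 1 member, Ccng1, and 1023 genes. Leaving out 1 mouse gave from 0 to 844 genes and 0 members. Without control 1 and with trends removed, an alternative chosen after seeing the data, 88 genes passed. Same-numbered mice deviated together with r of 0.18, 0.39 and 0.04, against -0.36 to 0.21 for mice with different numbers. These r do not settle whether the numbers mark pairs, and the main fit did not pair them. With the replicate block 0 genes and 0 members passed. The unadjusted limma p was then under 0.05 for 2676 genes and 4 members, against 1201 and 2 without the block. Cdkn1a, Ccng1, Trp53inp1, Gdf15, Sesn1, Gadd45a and Gadd45g kept their direction in all alternatives. Cdkn2a turned to 0.14 with the B and plasma cell marker score as a covariate and ranged from -1.52 to 0.32 with 1 mouse left out. Mdm2 turned to 0.040 by library size scaling, 0.024 when the 2 most muscle-rich libraries were dropped, 0.057 with trends removed and 0.028 with trends removed and without control 1, and ranged from -0.16 to 0.049 with 1 mouse left out. Gadd45b turned to 0.11 with edgeR, 0.087 with DESeq2, 0.013 by library size scaling, 0.17 with the marker score and 0.23 when the 2 most muscle-rich libraries were dropped, and ranged from -0.62 to 0.16 with 1 mouse left out. The cause of these turns was not tested. Scaling by library size alone moved the median of all genes to 0.14.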
